A study of Mus musculus with 18 samples.

Results

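Stradb, AI506816, Cdip1, Csnk1d and Gskip are 5 genes whose messages were distributed between cells and vesicles in another way in microglia cultures than in astrocyte and neuron cultures. They were picked by gene label from a list ranked on the interaction of cell type and fraction, that is, on how far the difference between vesicles and cells depends on the cell type. They make up 5 of 17714 gene labels and 71 of 114425 isoforms. The read counts of these genes in the 6 groups are therefore the values that chose them, and those counts are given here as a description with no test. Measures that the choice did not use are tested. They are the mean difference between fractions for the genes with reads in every group, and the mean difference between neurons and astrocytes. The isoform makeup of each gene is tested as well. Both mean differences share each gene's estimate of spread with the ranking that chose the genes.

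The libraries came from primary mouse brain cultures labelled astrocyte, microglia or neuron, and from the small extracellular vesicles (sEVs) prepared from each. There were 6 groups of 3 libraries: cells and sEVs of each cell type. The labels give no strain, age, sex, genotype or treatment, and nothing in them states that the 3 replicates of a group were grown separately, so every p-value measures the spread between these libraries, which may be technical. Full-length cDNA from polyadenylated RNA was reamplified for 10 cycles and read on a PacBio instrument, with all cell libraries in 1 pool and all sEV libraries in the other, so that fraction and sequencing pool cannot be told apart.

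Small extracellular vesicles are membrane vesicles that cells release, in part from multivesicular endosomes, and they carry proteins, lipids and RNA. The 5 genes act in different pathways. Stradb encodes STRAD beta, a pseudokinase that, like STRAD alpha, binds and activates the tumour suppressor kinase LKB1 (Stk11) together with the scaffold MO25 (Cab39). LKB1 switches on AMPK, the energy-sensing kinase. Csnk1d encodes casein kinase 1 delta, which phosphorylates the PER proteins of the circadian clock. Gskip encodes a small protein that binds the kinase GSK3 beta and the regulatory subunits of protein kinase A. Cdip1 encodes a pro-apoptotic target of p53 with the zinc-binding domain of LITAF, a protein of late endosomes and lysosomes. AI506816 is annotated in RefSeq as a long non-coding RNA.

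Of the 5 genes, 3 had 0 reads in all microglia sEV libraries, and the 250 bases before their annotated starts are shown to place these genes in the genome. The windows are from RefSeq on GRCm38.p6, while the reads were mapped to GRCm39. They are written 5′ to 3′ on the strand of the gene, with every CG dinucleotide in capitals. Stradb lies on the plus strand of chromosome 1 (chr1:58973272-58973521), AI506816 on the minus strand of chromosome 5 (chr5:23712668-23712917) and Cdip1 on the minus strand of chromosome 16 (chr16:4789942-4790191).
Stradb: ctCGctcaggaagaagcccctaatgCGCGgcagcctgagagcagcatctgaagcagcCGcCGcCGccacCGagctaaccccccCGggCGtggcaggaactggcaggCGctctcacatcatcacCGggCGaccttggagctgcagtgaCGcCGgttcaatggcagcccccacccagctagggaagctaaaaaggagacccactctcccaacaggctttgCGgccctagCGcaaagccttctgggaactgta
AI506816: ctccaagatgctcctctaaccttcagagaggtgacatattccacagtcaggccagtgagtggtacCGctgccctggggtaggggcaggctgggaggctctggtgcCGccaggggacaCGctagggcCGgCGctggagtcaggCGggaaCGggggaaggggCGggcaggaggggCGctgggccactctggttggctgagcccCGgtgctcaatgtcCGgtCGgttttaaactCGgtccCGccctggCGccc
Cdip1: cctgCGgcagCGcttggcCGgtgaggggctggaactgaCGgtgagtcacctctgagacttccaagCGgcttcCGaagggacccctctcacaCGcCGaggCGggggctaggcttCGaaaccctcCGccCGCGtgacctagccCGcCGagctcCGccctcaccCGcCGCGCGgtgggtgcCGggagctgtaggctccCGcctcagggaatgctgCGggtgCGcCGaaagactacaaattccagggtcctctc
The windows held 16, 15 and 25 CG dinucleotides in that order, and 63.6%, 67.2% and 68.8% of their bases were G or C. Over all 32817 windows of this length in the RefSeq table the median was 6 CG dinucleotides, with quartiles of 2 and 16. The letters TATAAA, searched on both strands, were in none of the windows printed, and 12.4% of all windows held them. Cdip1 has a second annotated start in the table, and its window (chr16:4789463-4789712), not printed, held 19 CG dinucleotides and 62.4% G or C. The window of Gskip held 27 CG dinucleotides. These counts describe the annotated starts and were not tested against the sEV values.

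Library totals ran from 434298 to 683381 reads. The smallest count above 0 in the deposited table was 2, so a 0 can hide single reads of an isoform. Each labelled cell type had the highest level of its own marker list among the cells, and markers of other types were present. The summed level of 8 astrocyte markers was 22209 to 24989 reads per 1000000 library reads (RPM, unscaled) in astrocyte cells. It was 2858 to 3165 RPM in neuron cells and 57.5 to 221 RPM in microglia cells. The 10 microglia markers summed to 5409 to 9112 RPM in microglia cells and to 1574 to 4529 RPM in microglia sEVs. They were at 0 in all 6 neuron libraries and reached at most 7.04 RPM in astrocyte cells and 18.5 RPM in astrocyte sEVs. Of 9 markers of the oligodendrocyte lineage, 8 were in the table. They summed to 4214 to 9131 RPM in astrocyte cells and 1957 to 3067 in their sEVs, and to 597 to 1645 RPM in neuron cells and 284 to 446 in their sEVs. In microglia they reached 101 RPM in cells and 99.7 in sEVs. The part of these cells in the levels of the 5 genes was not tested. Cx3cr1 was at 0 in microglia cells, and Tmem119 and Itgam were at 0 in microglia sEVs. In microglia sEVs the astrocyte markers summed to 55.2 to 129 RPM and the 9 neuron markers to 0 to 64.4 RPM. The predicted gene Gm42047 took 6.76% of the reads of astrocyte sEV library 1 and 8.94% of neuron sEV library 1, against at most 1.63% in any other library. The ferritin light chain gene Ftl1 averaged 232268 RPM in astrocyte sEVs, 192104 RPM in neuron sEVs and 53041 RPM in microglia sEVs. The part of these abundant transcripts in the shares of the 5 genes was not tested.

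Stradb had the widest range of the 5 genes. It had 18, 23 and 15 reads in the astrocyte cell libraries, 5, 6 and 4 in microglia cells, and 37, 49 and 23 in neuron cells. The sEV libraries held 638, 751 and 678 reads for astrocytes, 1187, 1447 and 811 for neurons, and 0 in each of the 3 microglia libraries. Every astrocyte and neuron sEV library was thus far above every cell library, and the microglia libraries ran the other way, at low counts. As unscaled shares, Stradb averaged 31.5 ± 9.07 RPM (SD, n = 3) in astrocyte cells and 1239 ± 265 in their sEVs, 39.4-fold more. It averaged 66.9 ± 22 RPM in neuron cells and 1950 ± 742 in their sEVs, 29.2-fold more. Microglia cells had 9.62 ± 3.26 RPM. With a floor of 3 reads in each library at 0, as used throughout, microglia sEVs were at least 1.74-fold lower than their cells. This leaves out counting error in the cells. Exact 95% intervals of the microglia cell libraries began at 1.59 to 4.22 RPM, and those of the sEV libraries reached 5.66 to 7.69 RPM, so they overlapped. Against the same floor, astrocyte sEVs were at least 225-fold higher than microglia sEVs and neuron sEVs at least 353-fold higher. The source cells differed less, by 3.27-fold between astrocyte and microglia cells and 6.95-fold between neuron and microglia cells. In the order of levels, neuron and astrocyte sEVs came first and overlapped in their libraries, followed by neuron, astrocyte and microglia cells, which did not overlap, and by microglia sEVs.

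AI506816, the long non-coding RNA, was the most evenly expressed of the 3 genes among the cells. Its reads were 43, 40 and 42 in astrocyte cells, 21, 17 and 26 in microglia cells, and 38, 25 and 24 in neuron cells. The sEV libraries held 71, 57 and 42 reads for astrocytes, 133, 118 and 64 for neurons, and 0 in all 3 microglia libraries. The neuron groups did not overlap as shares of the library, whereas 1 of 3 astrocyte sEV libraries fell within the range of astrocyte cells. The mean share was 69.4 ± 6.35 RPM in astrocyte cells and 101 ± 26.2 in their sEVs, 1.45-fold higher. It was 53.7 ± 14.2 RPM in neuron cells and 176 ± 64.2 in their sEVs, 3.27-fold higher. Microglia cells had 39.7 ± 8.01 RPM, at least 7.19-fold more than microglia sEVs. Of the 3 genes with 0 reads in microglia sEVs, AI506816 had the most reads in microglia cells, 64 in all, against 15 for Stradb and 20 for Cdip1. Gm42047 exceeded 1% of reads in 4 sEV libraries, those numbered 1 and 2 of astrocytes and of neurons. Without them only sEV library 3 was left for each of these cell types. The log2 difference of AI506816 between astrocyte sEVs and cells was then -0.077, against 0.57 with all libraries. In neurons it was 1.13 without those libraries, against 2.08 with all.

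Cdip1, the p53 target, had 85, 73 and 70 reads in astrocyte cells, 7, 5 and 8 in microglia cells and 69, 61 and 57 in neuron cells. The sEV libraries held 106, 85 and 101 reads for astrocytes, 143, 140 and 144 for neurons and 0 for all 3 of microglia. Every astrocyte and neuron sEV library was above every library of its source cells, but by a small factor. The share was 127 ± 22.2 RPM in astrocyte cells and 172 ± 2.12 in their sEVs, 1.35-fold higher. The corresponding values for neurons were 116 ± 10.2 and 238 ± 27.0 RPM, 2.06-fold higher. Microglia cells, at 12.5 ± 3.33 RPM, were already 10.2-fold below astrocyte cells and 9.27-fold below neuron cells, as unscaled shares. With TMM scaling the gap was smaller but in the same direction. The scaled means were 18.3 RPM in microglia cells, 107 in astrocyte cells and 98.6 in neuron cells. Microglia sEVs were at least 2.26-fold below microglia cells. For Cdip1 the low level in microglia was thus present in the cells, and the depth of the sEV libraries bounds a further difference loosely. In bulk RNA, fewer cells expressing a gene and less RNA per cell cannot be told apart.

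**Figure D1:**
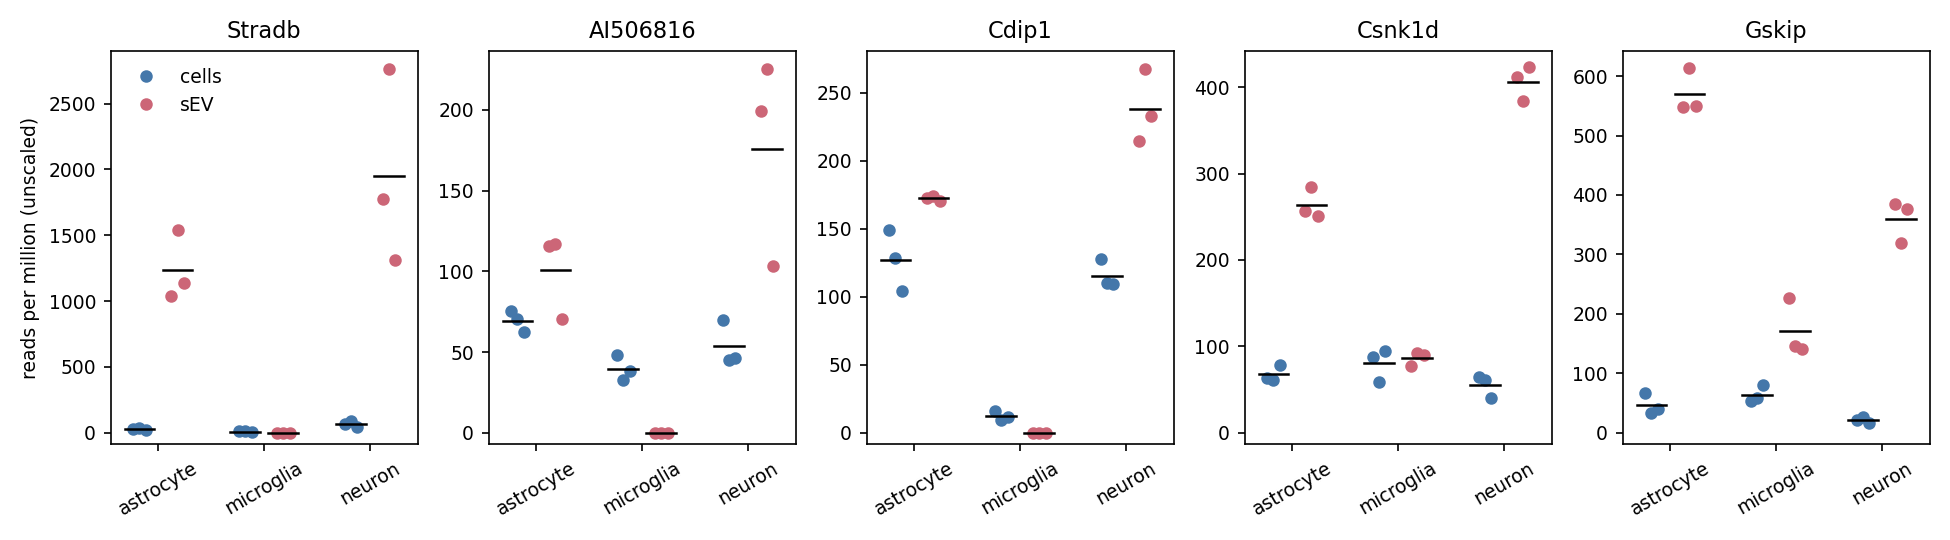
RPM of unscaled library totals (y axis, linear, a separate scale in each panel) for the 5 genes in cells (blue) and sEVs (red) of the 3 cell types. Points are single libraries and black lines are means of 3. Stradb, AI506816 and Cdip1 are at 0 in all 3 microglia sEV libraries, while Csnk1d and Gskip have reads in every library.

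Csnk1d, the clock kinase, was present in every library. Its reads were 36, 35 and 53 in astrocyte cells, 38, 31 and 65 in microglia cells and 35, 34 and 21 in neuron cells. The sEV libraries held 158, 139 and 149 reads for astrocytes, 37, 49 and 59 for microglia and 275, 201 and 262 for neurons. The 3 kinds of cells overlapped in their shares, and the microglia sEV libraries lay within the range of their cells. The share in cells was 67.9 ± 9.68 RPM for astrocytes, 80.7 ± 18.8 for microglia and 55.4 ± 13.1 for neurons. In sEVs it was 264 ± 18.2 RPM for astrocytes, 86.9 ± 8.48 for microglia and 406 ± 20.2 for neurons, with no overlap between the 3. The sEVs were 3.89-fold above their cells in astrocytes, 7.34-fold in neurons and 1.08-fold in microglia. The fitted log2 difference was 1.97 (SE 0.29) in astrocytes and 3.24 (SE 0.30) in neurons. In microglia it was -0.47 (SE 0.29), and it was 0.11 when library totals were used without TMM scaling, so its sign depends on the scaling.

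Gskip, the GSK3 beta and protein kinase A binding protein, was also detected throughout. Its reads were 38, 19 and 27 in astrocyte cells, 23, 31 and 55 in microglia cells and 12, 15 and 9 in neuron cells. The sEV libraries held 337, 299 and 327 reads for astrocytes, 109, 77 and 92 for microglia and 257, 167 and 233 for neurons. In all 3 cell types every sEV library was above every cell library as a share of reads. The share in cells was 46.7 ± 17.4 RPM for astrocytes, 64.3 ± 14.4 for microglia and 22.1 ± 4.84 for neurons. In sEVs it was 570 ± 36.8, 172 ± 48.4 and 360 ± 35.8 RPM in the same order. The sEVs were 12.2-fold above their cells in astrocytes, 16.3-fold in neurons and 2.67-fold in microglia. Microglia thus had the highest mean in cells, with libraries that overlapped those of astrocytes, and the lowest in sEVs, with no overlap. The fitted log2 difference in microglia was 0.79 (SE 0.29), and 1.40 without TMM scaling.

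As shares of the library, the sEV and cell libraries did not overlap for 4 of the 5 genes in astrocytes, all higher in sEVs, where 15.7% of all genes tested did so. In neurons this held for all 5 genes, against 18.4% of all genes. In microglia 3 genes were lower in sEVs without overlap, against 12.8% of all genes, and Gskip was higher, against 18.6%. The genes were chosen on these levels, so nothing is read from those counts.

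**Figure D2:**
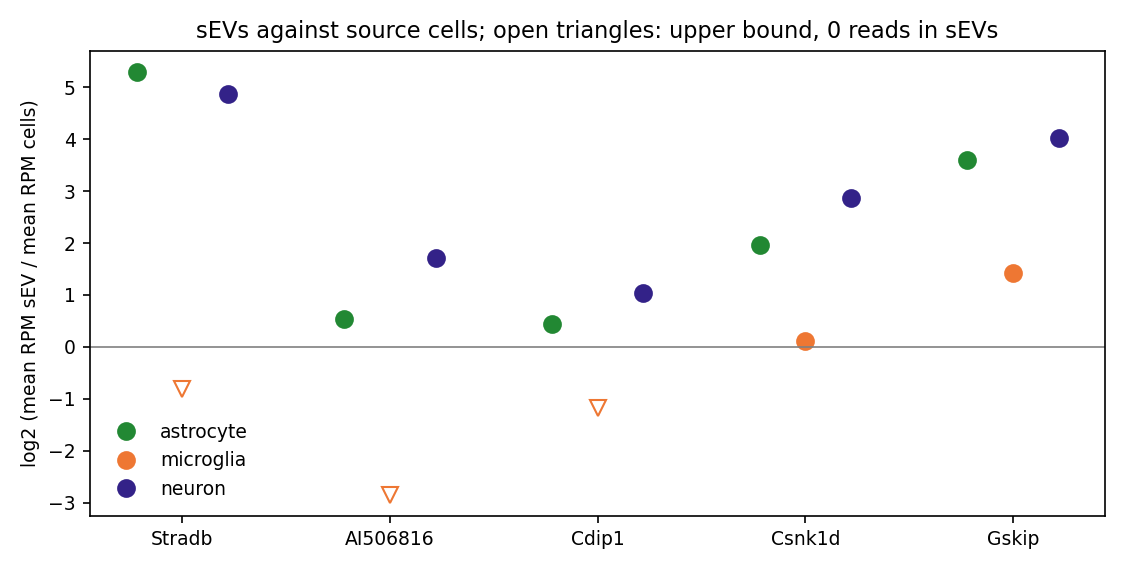
The log2 ratio of the mean RPM in sEVs to the mean RPM in source cells (y axis) for each gene and cell type, without TMM scaling. Filled circles are measured ratios of 3 against 3 libraries, and open triangles are upper bounds set by 3 reads per library where microglia sEVs had 0 reads. For each gene the microglia symbol is below both others.

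Over all 8184 genes that passed the filter on low counts, which all 5 genes passed, 324 or 3.96% had an interaction of cell type and fraction at an adjusted p under 0.05 (edgeR quasi-likelihood F test, Benjamini-Hochberg). In that ranking by p, Stradb stood at 1, AI506816 at 2, Cdip1 at 5, Csnk1d at 8 and Gskip at 10. This ranking chose the genes and is no evidence about them. The genes between them were Ftl1 at 3, Rpl9 at 4, Rplp0 at 6, Rps2 at 7 and Rpl8 at 9, and the next after Gskip was Gnl1 at 11. Apart from Ftl1, the genes in between encode ribosomal proteins.

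A count of 0 in all 3 microglia sEV libraries was common: 21.7% of the genes tested had it, and 5.96% also had reads in all 6 astrocyte and neuron sEV libraries. A further condition, reads in all 3 microglia cell libraries, left 40 genes, or 0.489%. Stradb, Cdip1 and AI506816 met it and had the most astrocyte and neuron sEV reads of the 40, with 5512, 719 and 485. The next gene was Atp1b2, a sodium pump subunit, with 431. Stradb, Cdip1 and AI506816 were chosen on these same counts, so nothing is read from their place among the 40. Leaving out TMM moved the median over all genes of the microglia loading (the log2 difference between sEVs and cells, minus the mean of the same in the other cell types) from 0.02 to 0.72.

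Csnk1d and Gskip allowed a test of the mean difference between fractions over the 3 cell types. The interaction does not use this mean, but both rest on the same estimate of spread for each gene. Genes ranked high on the interaction may have a low spread, so these p-values may be too small. Csnk1d was higher in sEVs by 1.58 on the log2 scale (SE 0.17) and Gskip by 2.93 (SE 0.18). The adjusted p-values from edgeR were 1.03e-06 for Csnk1d and 1.56e-09 for Gskip. Both thus rose in sEVs on average, as did 14.5% of all genes tested. For Csnk1d the rise was that of astrocytes and neurons, as the difference in microglia was -0.47. For the other 3 genes this mean has no finite size because 1 group is at 0, and it is not given.

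The mean difference between neurons and astrocytes over both fractions could be tested for all 5 genes, with the same limit from the shared estimate of spread. Stradb was higher in neurons by 1.05 on the log2 scale (SE 0.25; edgeR adjusted p = 0.00705). Its neuron cell libraries were all above the astrocyte cell libraries, whereas the sEV libraries overlapped. Without the 4 sEV libraries with over 1% Gm42047, which leaves 1 sEV library each of astrocytes and neurons, the difference was 0.80. Gskip was lower in neurons, at -0.69 (SE 0.21; edgeR adjusted p = 0.0278), and this call was lost with DESeq2 (adjusted p = 0.0562). It was also lost without astrocyte cell library 1 (0.103), neuron cell library 1 (0.0621), neuron cell library 3 (0.0854) or neuron sEV library 2 (0.0646), in edgeR adjusted p. The same held with DESeq2 size factors (0.0688) and with no filter on low counts (0.149), in edgeR adjusted p. Without the Gm42047 libraries the difference for Gskip was -0.66. AI506816 (0.40, SE 0.27), Cdip1 (0.35, SE 0.19) and Csnk1d (0.33, SE 0.20) did not pass, with edgeR adjusted p-values of 0.329, 0.213 and 0.266. With DESeq2, Cdip1 passed (0.47, adjusted p = 0.0295), so which genes pass depends on the tool. In the edgeR fit, that 2 of 5 genes passed compares with 22.6% of all genes tested. Over both fractions, Csnk1d in microglia was -0.35 from the mean of the other cell types (edgeR adjusted p = 0.102) and Gskip by 0.19 (adjusted p = 0.381). Without TMM scaling these values were -0.76, with an adjusted p of 0.000719, and -0.20, with 0.383. Of all genes, 57.7% passed this comparison.

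The isoforms of AI506816 in sEVs were not those in cells. Isoforms with a partly retained intron held all reads in 8 of the 9 cell libraries and 87.5% in astrocyte cell library 2. A single isoform of that class was found in 8 cell libraries and another in neuron cell library 2. The class had 120 reads in astrocyte cells, 64 in microglia cells and 87 in neuron cells, but 5 in astrocyte sEVs, all in library 3, and 0 in microglia and neuron sEVs. In sEVs most reads were instead on a pair of isoforms labelled full-splice match, 1 of them with a single exon and the other with an alternative 3′ end. The label means that every splice junction is that of an annotated transcript. The single-exon isoform carries it but has no junction to match. The single-exon isoform had 29, 6 and 11 reads in astrocyte sEVs and 80, 104 and 52 in neuron sEVs. The isoform with the alternative 3′ end had 42, 43 and 16 reads in astrocyte sEVs and 53, 14 and 12 in neuron sEVs. Among cells, these full-splice-match isoforms had 5 reads, all in astrocyte cell library 2, and microglia cells had 0. The class that made up the microglia cell reads was thus at or near 0 in the sEVs of all 3 cell types, and the class found in astrocyte and neuron sEVs had no reads in microglia cells.

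**Figure D3:**
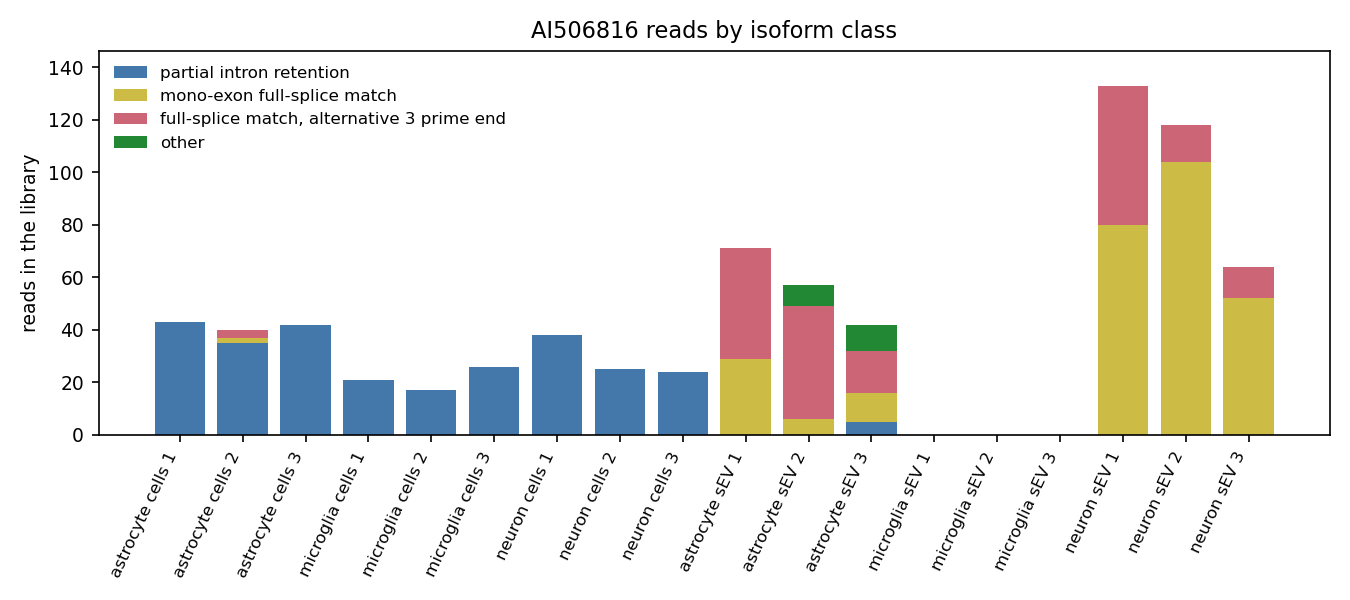
AI506816 reads per library (y axis) in the 18 libraries (x axis), stacked by isoform class. Cell libraries carry the isoform class with a partly retained intron, astrocyte and neuron sEV libraries carry full-splice-match isoforms, and microglia sEV libraries have 0 reads.

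The full-splice-match share of AI506816 reads was 0, 12.5 and 0% in astrocyte cells and 0% in all microglia and neuron cell libraries. In sEVs it was 100, 86.0 and 64.3% for astrocytes and 100% in all neuron libraries. The groups did not overlap. The mean difference was 89.6 percentage points over 6 sEV and 6 cell libraries of astrocytes and neurons, with p = 0.005 in an exact two-sided permutation test within cell type. That is the smallest p that the 400 rearrangements allow. Adjusted over the 6 shares tested it was 0.015. In edgeR's test of isoform usage its adjusted p was 0.00226 (0.00148 to 0.0108 when each library was left out in turn). That test averages sEVs minus cells over all cell types. AI506816 had 0 reads in microglia sEVs, where isoform use has no value, so nothing further is read from that test. Of the 1752 genes with at least 2 tested isoforms, 7.13% passed that test. Over all genes together the full-splice-match share was lower in sEVs, with a difference of -7.02 percentage points (exact permutation p = 0.00025, adjusted p = 0.0015), the opposite direction to AI506816.

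Stradb reads in sEVs fell on many isoforms, 30 in all, of which 21 were seen in 1 library and held 7.92% of the reads. One full-splice-match isoform with alternative ends held 64.4% of all Stradb reads. It had 443, 453 and 455 reads in astrocyte sEVs and 802, 616 and 738 in neuron sEVs, a narrower spread than that of the gene total. The excess in single libraries lay on other isoforms. An isoform with an unannotated exon had 754 of the 1447 reads of neuron sEV library 2, 7 in library 1 and 0 in library 3. A second such isoform had 206 reads in neuron sEV library 1 and 145 in astrocyte sEV library 3, with 7 in neuron sEV library 2, and a combination of known splice sites had 171 reads in astrocyte sEV library 2 alone.

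The full-splice-match share of Stradb was 100% in all astrocyte cell libraries and 91.3 to 100% in neuron cells. In sEVs it was 81.5, 65.8 and 77.1% for astrocytes and 72.8, 46.3 and 97.2% for neurons. The difference was -24.4 percentage points, with an exact permutation p of 0.015 and an adjusted p of 0.03 over the 6 shares. With fraction exchanged within same-numbered pairs, the exact permutation p was 0.0625. The share over all genes together, with microglia included, was lower in sEVs as well, with a difference of -7.02 points. The part of that general difference in the Stradb value was not tested. The cell libraries held 15 to 49 Stradb reads in this comparison against 638 to 1447 in sEVs, and rare isoforms with fewer than 2 reads are not listed, so the depth of the cells limits what this share can show. Relative use of its 2 tested isoforms did not pass edgeR's isoform usage test (adjusted p = 1.00). That test includes microglia sEVs, which had 0 Stradb reads, so it cannot decide the question.

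**Figure D4:**
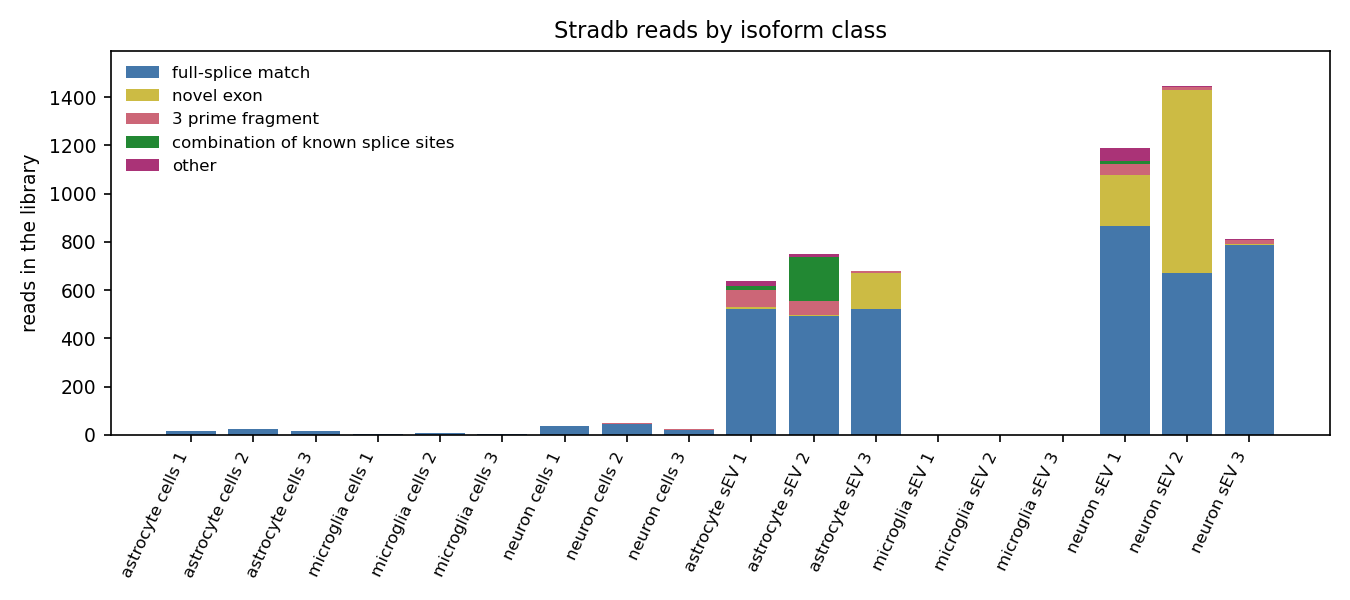
Stradb reads per library (y axis) in the 18 libraries (x axis), stacked by isoform class. Full-splice-match reads make up the largest part of every astrocyte and neuron sEV library except neuron sEV library 2, in which isoforms with an unannotated exon have more reads.

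Cdip1 had an isoform that retains an intron in the cells: 22, 17 and 16 reads in astrocyte cells, 5, 7 and 16 in neuron cells, and 2, 0 and 0 in microglia cells. It had 0 reads in every astrocyte and neuron sEV library, and microglia sEVs had 0 Cdip1 reads of any kind. The share of intron-retaining reads was 22.9 to 25.9% in astrocyte cells and 7.25 to 28.1% in neuron cells. Astrocyte sEV library 3 had 4 intron-retaining reads on another isoform, 3.96% of its Cdip1 reads. In sEVs the spliced reads changed isoform from library to library. In neuron sEVs the main full-splice-match isoform had 140, 138 and 16 reads, and one with an alternative 3′ end had 3, 2 and 128. In astrocyte sEV library 1 all 106 Cdip1 reads were on a 3′ fragment that no other library contained. The full-splice-match share differed between sEVs and cells by 5.21 percentage points (exact permutation p = 0.925). Without astrocyte sEV library 1 the difference was 21.4 points with an exact permutation p of 0.005, so that 1 library decides it. In the isoform usage test of edgeR, which includes the microglia sEVs with 0 Cdip1 reads and so has the same limit, Cdip1 had an adjusted p of 0.148.

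Csnk1d was carried by 2 full-splice-match isoforms, one with an alternative 5′ end and one with an alternative 3′ end. The isoform with the alternative 3′ end held 65.8, 58.1 and 60% of reads in microglia cells, against 11.1, 0 and 11.3% in astrocyte cells and 5.71, 0 and 14.3% in neuron cells. Microglia cells did not overlap the other cells in this share. In microglia sEVs it was 78.4, 40.8 and 16.9%, a wide spread. Neuron sEVs had 0% in all libraries, and astrocyte sEVs had 0, 9.35 and 75.8%. Astrocyte sEV library 1 again stood apart, with 136 of its 158 reads on a 3′ fragment. Neither the full-splice-match share (-0.20 points, exact permutation p = 0.978) nor the isoform usage test of sEVs against cells (edgeR adjusted p = 0.419) separated the fractions.

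**Figure D5:**
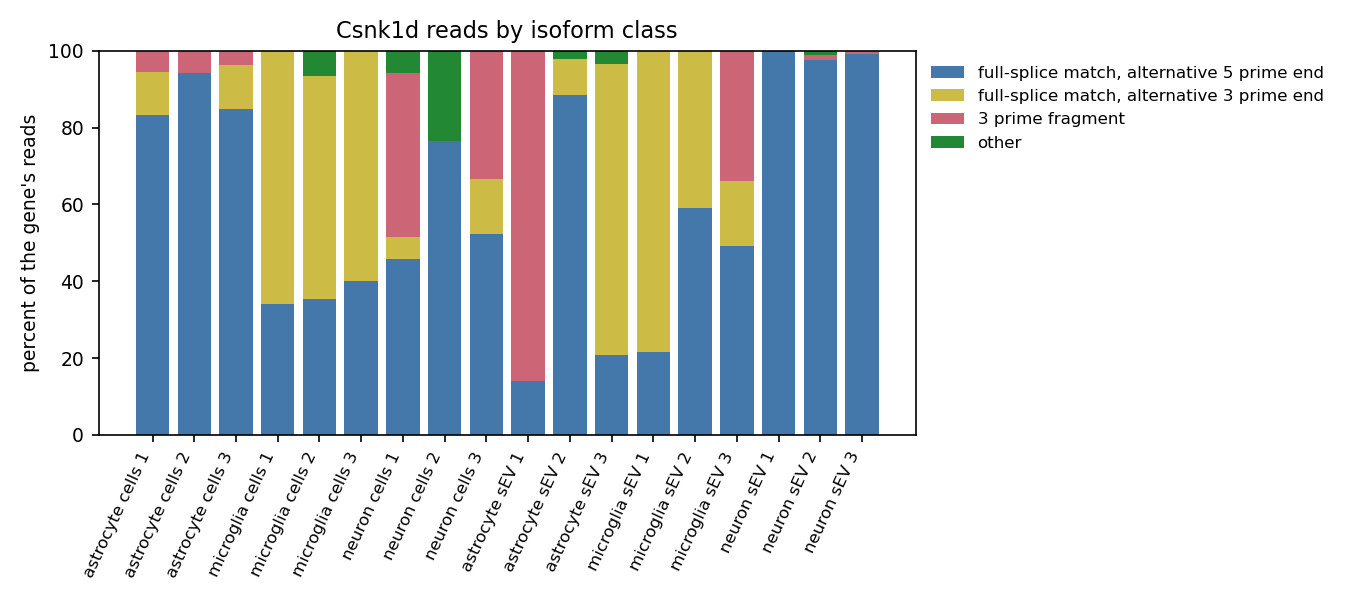
Share of Csnk1d reads (percent, y axis) by isoform class in the 18 libraries (x axis). The full-splice-match isoform with the alternative 3′ end holds most of the reads in all 3 microglia cell libraries, in microglia sEV library 1 and in astrocyte sEV library 3.

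Gskip was the simplest gene, with 5 isoforms, 1 of which held 99.2% of the 2127 reads and was found in all 18 libraries. Its full-splice-match share was 88.9 to 100% in every group, and the difference between fractions was 0.96 percentage points (exact permutation p = 1.00). The excess of Gskip in sEVs was therefore on the same isoform that the cells carried.

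The profiles of the 5 genes over the 18 libraries were alike to different degrees. Pearson's r of log2 CPM was 0.91 between AI506816 and Cdip1, 0.85 between Stradb and Cdip1 and 0.80 between Stradb and AI506816. It was 0.88 between Csnk1d and Gskip. Stradb was also close to Csnk1d (0.74) and less so to Gskip (0.54). AI506816 gave 0.49 with Csnk1d and 0.15 with Gskip, and Cdip1 gave 0.38 and 0.08. These values describe 18 libraries that share 6 groups. Among 7952 named genes, those most like Stradb were Rdh10 (r = 0.97), a retinol dehydrogenase, Stk11ip (0.97), which encodes a protein that binds LKB1, and Egln1 (0.96), an oxygen-sensing prolyl hydroxylase. All 3 had 0 reads in microglia sEVs, and Rdh10 averaged 546 RPM in astrocyte sEVs and 981 in neuron sEVs. Stk11ip was scarce, at 18.3 and 22 RPM in the same groups. Most like AI506816 were Coq5 (0.92), Zfyve19 (0.91) and Tex261 (0.91), and most like Cdip1 were Pigq (0.97), Mcm7 (0.96) and Crip2 (0.96). The genes most like Csnk1d were Kctd10 (0.96), the ribosomal protein gene Rpl4 (0.95) and the translation elongation factor Eef1a1 (0.93). Those most like Gskip were Ftl1 (0.96), Arhgap11a (0.92) and the thioredoxin reductase Txnrd1 (0.92).

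Of the LKB1 pathway list, 11 of 21 genes were tested. In astrocytes 3 rose in sEVs (Cab39, Cab39l and Prkag2), in neurons Cab39l rose, and in microglia none passed. The share of all genes that rose was 8.04% in astrocytes, 13.6% in neurons and 2.7% in microglia, and 12.2, 17.8 and 9.18% fell. Stk11, the kinase that STRAD proteins activate, had 11 reads in microglia cells and 37 in microglia sEVs, so unlike Stradb it was present in those vesicles. Cab39, the MO25 scaffold, had 268 reads in astrocyte sEVs, all libraries between 79 and 108. It had 62 reads in microglia sEVs, all in 1 library. Strada, the paralog of Stradb, had 32, 18 and 16 reads in astrocyte, microglia and neuron cells and did not pass the filter on low counts. It had 0 reads in astrocyte and microglia sEVs and 12 in a single neuron sEV library, so the high sEV level of Stradb was not seen in Strada.

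Of the casein kinase 1 and clock list, 15 of 23 genes were tested. In neurons Csnk1g2 rose and Csnk1a1 fell, and none passed in astrocytes or microglia. Csnk1a1, the casein kinase 1 alpha gene, averaged 260 ± 30.9 RPM in neuron cells and 118 ± 18.3 in their sEVs. It averaged 176 ± 18.1 RPM in microglia cells and 299 ± 35.5 in their sEVs. The TMM-scaled fit gave Csnk1a1 a log2 difference of 0.19 in microglia (edgeR adjusted p = 0.796), so the size of that rise depends on the scaling. Csnk1e, the closest relative of Csnk1d, was scarce: 0 reads in microglia cells and sEVs and at most 20 in any other library. Of the GSK3, protein kinase A and axin list, 16 of 18 genes were tested. Ctnnb1, which encodes beta-catenin, and the protein kinase A subunit gene Prkar2a rose in sEVs of both astrocytes and neurons, and Apc rose in those of astrocytes. In neuron sEVs Prkar1a and Dnm1l fell. None passed in microglia. Gsk3b, the partner of GSKIP, had 0 reads in microglia cells and 14 in microglia sEVs.

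Of the LITAF domain and apoptosis list, 18 of 21 genes were tested, and it was the list with calls in microglia. Bcap31, an endoplasmic reticulum protein that CDIP1 binds in stress-induced cell death, fell in the sEVs of all 3 cell types. In microglia it averaged 455 ± 39.4 RPM in cells and 84.4 ± 37.9 in sEVs (log2 difference -3.04, edgeR adjusted p = 0.00310). Tnf, an inflammatory cytokine, and Bak1, a pore-forming apoptosis gene, also fell in microglia sEVs. Bak1 was close to the threshold (edgeR adjusted p = 0.0495) and scarce, with 62 reads in microglia cells and 7 in their sEVs. The microglia loading was lower than in the other cell types for 2 genes, against 2.46% of all genes tested. Cdkn1a, the p53 target that arrests the cell cycle, had a difference of -2.50 (edgeR adjusted p = 0.00133). It averaged 2999 ± 295 RPM in microglia cells and 6011 ± 323 in their sEVs, against 83.3 ± 19.6 and 536 ± 78.9 in astrocytes and 69.5 ± 15.5 and 481 ± 178 in neurons. The TMM-scaled fit gave Cdkn1a a log2 difference of 0.43 in microglia, which did not pass (edgeR adjusted p = 0.437). The size of that rise thus depends on the scaling. Litaf had a difference of -2.34 (edgeR adjusted p = 0.0425). It averaged 231 ± 12.9 RPM in microglia cells and 290 ± 54.2 in their sEVs, whereas the TMM-scaled fit gave a log2 difference of -0.26 in microglia, so that direction depends on the scaling. The sEV level was above 44.1 ± 8.05 in astrocyte sEVs and 17.2 ± 8.35 in neuron sEVs. Unlike Cdip1, both genes were thus more abundant in microglia sEVs than in the other sEVs. In the other 3 lists no gene passed for the microglia loading. The median microglia loading of the lists was -0.37, 0.01, 0.29 and -0.13 on the log2 scale in the order given here, against 0.02 over all genes.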

How the data were processed

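Counts of PacBio reads per isoform were deposited by the authors as raw, whole numbers. Reads had been mapped to GRCm39 with minimap2, per the submitters' processing notes; which isoform caller and annotation were used is not given in the sources used here. Counts were summed per gene label and tested with edgeR 4.0.16 in R 4.3.3 (filterByExpr by group, TMM, quasi-likelihood F tests, 1 fit of all 18 libraries, Benjamini-Hochberg, threshold 0.05). Isoform usage was tested with diffSpliceDGE, and full-splice-match shares, in libraries with at least 5 reads of the gene, by exact permutation within cell type. DESeq2 1.42.0 was an alternative. Levels are RPM of library totals of 434298 to 683381 reads. Reads carry no molecular identifiers, so the floor of 3 reads covers counting error only. The 5 genes and the gene lists were chosen with earlier results of these data known. Named genes were the 5 genes, list members past the threshold in microglia or nearest relatives, and the 3 genes most correlated with each; genes of the lists called in astrocytes or neurons, and those ranked beside the 5 genes, were named after their values were seen. On simulated counts for 7390 genes, the microglia loading test recovered 4 of 89 genes changed 4-fold and 68 of 96 changed 16-fold. Each simulated gene had the same mean share in all groups, apart from the change set in microglia sEVs, and all genes had the same dispersion. Real genes differ in both, so these rates do not measure recovery in the real data.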

Additional observations from a re-analysis of the deposited data

Results flagged for a closer look

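The difference between sEVs and cells itself differed between microglia and the mean of the other cell types for all 5 genes, for which they were chosen. On the log2 scale the fitted differences were -11.31 for Stradb, -9.40 for AI506816, -7.36 for Cdip1, -3.07 for Csnk1d and -3.22 for Gskip. The first 3 rest on groups at 0 and are no sizes of effect. Among the pathway lists, Cdkn1a (-2.50) and Litaf (-2.34) met the same condition by the test of that difference.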

How the results depend on the processing

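The interaction was called for 324 genes, and for 664 without TMM scaling, 714 with no filter on low counts, 986 with DESeq2, and 149 to 435 when each library was left out in turn. The microglia loading was called for 324 genes (123 higher, 201 lower), and for 730 (616 higher, 114 lower) without TMM, 519 with no filter, 797 with DESeq2 and 163 to 390 with a library left out. The lowest counts came without any 1 of the 9 cell libraries for the interaction (149 to 213) and without any 1 of the 3 microglia cell libraries for the loading (163 to 178). Without the 4 libraries with over 1% Gm42047, the counts of genes that differed between sEVs and cells were 987 in astrocytes and 1704 in neurons, and 944 differed between neurons and astrocytes. With a library left out they ranged from 1100 (without astrocyte cell library 3) to 1907 in astrocytes, 583 to 1093 in microglia (583 and 591 without microglia cell libraries 2 and 3), 1872 to 2850 in neurons and 1476 to 2104 for neurons against astrocytes. Isoform usage was called for 211 genes with the gene-level F test, and for 85 to 125 with a library left out. The full-splice-match difference with a library left out was -30.7 to -18.0 points for Stradb, 85.5 to 94.4 for AI506816, -3.61 to 21.4 for Cdip1, -4.93 to 9.06 for Csnk1d and -0.27 to 1.58 for Gskip. The direction reversed for Csnk1d in microglia without TMM (0.11), for Gskip in microglia over both fractions without TMM (-0.20) and for AI506816 in astrocytes without the Gm42047 libraries (-0.077). The cause was not tested. Whether replicate numbers pair the samples could not be decided. The deviations of same-numbered sEV and cell libraries correlated at -0.08 to 0.08 (median 0.04), in 0 of 9 pairs over 0.1. Those of other-numbered libraries correlated at -0.08 to 0.07 (median -0.02). Deviations from means of 3 libraries are too noisy to exclude pairing. With fraction exchanged within same-numbered pairs, the replicate block gave Stradb the same -24.4 points with an exact permutation p of 0.0625. The cell libraries held 4 to 85 reads per gene, which limits their isoform shares.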
